A study of Mus musculus with 7 samples.

Results

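Molecular chaperones are the proteins that help other proteins fold, and this report describes 75 genes for them in mouse bone marrow, out of 8378 genes with a value. Members were taken by symbol: heat shock proteins (Hspa, Hspb, Hspd, Hspe, Hsph and Hsp90 genes), J proteins (Dnaja, Dnajb and Dnajc), the CCT chaperonin with Tcp1, prefoldins, Bag1 to Bag6, protein disulfide isomerases with P4hb, and Hyou1, Calr, Canx and Hspbp1. They were measured by 147 of 16255 probe sets, and the value of a gene is the mean of its probe sets. By the known place of the protein, 45 members were assigned to the cytosol, 20 to the endoplasmic reticulum and 7 to mitochondria, and 3 were left unassigned. Of 104 protein-coding symbols in the RefSeq gene table that the rule takes in, 29 have no value here, among them Hsp90ab1, Hspa1a and Hspb1. Every value comes from a probe set called Present or Marginal on all arrays, so the 75 are the detected members and not all members.

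RNA of bone marrow cells from transplanted mice was hybridised to 7 Affymetrix Mouse430_2 arrays. The mock group (3 arrays, numbered 1 to 3) was unsorted marrow of recipients of cells with a mock control transgene. The ABCG2 group (2 arrays, numbered 1 and 2) was unsorted marrow of recipients of cells with an ABCG2 transgene, ABCG2 being a membrane pump that exports small molecules. The EZH2-Mt samples came from a recipient with an MDS-like disease, MDS being taken as myelodysplastic syndrome, and were sorted on green fluorescent protein into a GFP-negative and a GFP-positive fraction (1 array each). EZH2 is the histone methyltransferase of Polycomb complex PRC2, and which mutant EZH2-Mt is was not given in the sources used here, nor were strain, age, vector promoter or time after transplant. All groups share the transplant, and recipients can hold host cells beside donor cells. The ABCG2 titles carry a tag, ser2, that the others lack, and its meaning is not given. If that tag marks a batch, batch and group cannot be told apart. Mice were not numbered, so p-values measure only the spread between these arrays.

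HSP70 proteins bind unfolded stretches of other proteins and release them on ATP hydrolysis, J proteins bring them their substrates and stimulate the hydrolysis, and nucleotide exchange factors such as BAG and HSP110 proteins reset them. In the cytosol the ring-shaped CCT complex, fed by prefoldin, folds actin and tubulin, and in mitochondria Hspd1 and Hspe1 form a similar chamber. The endoplasmic reticulum has its own HSP70 (Hspa5), HSP90 (Hsp90b1), J proteins, lectin chaperones (Calr, Canx) and disulfide isomerases for secreted and membrane proteins. Its genes are induced by the unfolded protein response through promoter elements bound by ATF6 and XBP1, while heat shock factors induce many cytosolic and mitochondrial chaperone genes.

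The promoter sequences below show elements through which chaperone genes are known to be induced. They were chosen after the ABCG2 differences by compartment were seen, and the part of the elements in those differences was not tested. RefSeq promoters of build GRCm38.p6 were matched by symbol for 61 of the 75 members, and the 250 bases before each start were searched on both strands. The endoplasmic reticulum stress element was spelled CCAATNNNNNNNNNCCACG. It was found before 6 members, all of them among the 18 endoplasmic reticulum members with a promoter, and before 0 of 37 cytosolic and 0 of 4 mitochondrial members. Of all 32851 promoter windows 0.113% held it, as did 0.159% of 6929 measured genes. In the sites that follow, capitals mark the matched element, the strand is that of the gene, and an element read CGTGG to ATTGG lies in the reverse orientation.
Hspa5, chr2:34772010-34772058, + strand: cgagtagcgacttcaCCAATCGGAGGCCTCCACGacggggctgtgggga
Hsp90b1, chr10:86705623-86705671, - strand: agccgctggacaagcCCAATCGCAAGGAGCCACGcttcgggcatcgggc
Hsp90b1, chr10:86705518-86705566, - strand: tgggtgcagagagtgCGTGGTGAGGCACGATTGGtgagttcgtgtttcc
Calr, chr8:84847060-84847108, - strand: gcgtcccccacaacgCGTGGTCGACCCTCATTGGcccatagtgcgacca
Canx, chr11:50325785-50325833, - strand: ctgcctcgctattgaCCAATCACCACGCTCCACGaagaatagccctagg
Dnajc3, chr14:118937812-118937860, + strand: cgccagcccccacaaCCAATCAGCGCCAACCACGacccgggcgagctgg
Pdia6, chr12:17266476-17266524, + strand: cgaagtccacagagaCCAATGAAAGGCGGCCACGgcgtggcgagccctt
The element of Hspa5 lies 65 to 47 bases before the start, and the others lie between 212 and 80 bases before it. All are upstream of the annotated transcript.

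A heat shock element, the triplets GAA, TTC and GAA or TTC, GAA and TTC with NN between neighbours, searched on both strands, was found before Hspd1, Hspe1 and Dnajb6. That was 2 of 4 mitochondrial, 1 of 37 cytosolic and 0 of 18 endoplasmic reticulum members with a promoter. The heat shock element was present in 0.466% of all windows and 0.447% of the measured genes, and 0 of the 61 members held both elements. The site of Dnajb6 is not printed. Hspd1 and Hspe1 are neighbours on chromosome 1 that are transcribed away from each other, and their windows hold one and the same stretch, printed from each gene's own strand.
Hspe1, chr1:55088044-55088091, + strand: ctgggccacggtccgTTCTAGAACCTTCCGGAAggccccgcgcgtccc
Hspd1, chr1:55088044-55088091, - strand: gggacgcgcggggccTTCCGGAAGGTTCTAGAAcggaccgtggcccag
The stretch lies 89 to 72 bases before the start of Hspe1 and 144 to 127 bases before that of Hspd1. A match is a run of letters only, and binding was not measured.

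The labels could not be checked on the transgenes themselves, since the species of their cDNA, and whether the probe sets read it, are not given in the sources used here. Mouse Abcg2 was at -0.17 to 0.02 on the mock arrays and lower, at -0.92 and -0.91, on the arrays labelled ABCG2, and mouse Ezh2 was at -0.14 in GFP-negative and -0.16 in GFP-positive cells. Markers of every blood lineage listed were detected on all arrays, but centred values carry no level to hold against the tissue label. The ABCG2 marrow differed from mock in cell type markers, and these values stand beside every difference given here. All 4 measured of 6 primary granule markers, all 12 of 15 mature neutrophil markers and all 8 of 11 monocyte markers were lower in ABCG2, with median differences of -6.19, -4.24 and -4.10 on the log2 scale. The mean of the neutrophil markers ranged from -0.17 to 0.21 on the mock arrays and was -3.36 and -5.18 on the ABCG2 arrays. Of B cell markers, 4 of the 6 measured (of 13) were higher, with a median of 4.04 and means of -1.44 to -0.62 in mock against 2.11 and 2.62 in ABCG2. Of the plasma cell markers, 3 of 8 were measured and 2 of them were higher, with means of -0.24 to 0.13 in mock and 1.99 and 1.62 in ABCG2. Plasma cells carry a large endoplasmic reticulum. Of the other lists, 3 of 4 measured stem and progenitor markers were higher and 0 lower, 2 of 4 T and NK cell markers were higher and 1 lower, and 1 of 5 erythroid markers was higher and 1 lower, with an erythroid median of -0.05. Among the array controls, the 3' minus 5' signal of actin was -0.05 to 0.04 in mock and 0.40 and 0.42 in ABCG2, while that of Gapdh was -0.08 to 0.10 in mock and -0.08 and -0.11 in ABCG2. The bioB spike averaged -0.09 to 0 in mock and -3.12 and -3.38 in ABCG2. The bioC, bioD and cre spikes averaged -0.08 to 0.06 in mock and -0.26 and -0.39 in ABCG2. The dap, lys, phe and thr spikes averaged -0.07 to 0.02 in mock and -1.05 and -1.63 in ABCG2. The SD over all genes was 0.30 to 0.39 on the mock and 1.12 and 1.21 on the ABCG2 arrays. The part of cell type shares, RNA quality or array signal in the chaperone differences was not tested, and in unsorted marrow fewer cells of a type and less RNA per cell cannot be told apart.

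All chaperone genes assigned to the endoplasmic reticulum that passed the test fell in ABCG2 marrow. Most of those of the cytosol and all of those of mitochondria rose. The 3 unassigned members, 2 higher and 1 lower, are counted in none of these compartments. In the endoplasmic reticulum 12 of 20 members were lower and 0 higher. In the cytosol 27 of 45 were higher and 4 lower, and in mitochondria 5 of 7 were higher and 0 lower. A gene was called where limma's adjusted p over all 8378 genes was under 0.05. By that rule 35.6% of all genes were higher and 26.2% lower, so the 34 higher (45.3%) and 17 lower (22.7%) of all 75 members stood not far from the background, and the contrast lay between the compartments. The median difference, ABCG2 minus mock in log2, was -0.59 in the endoplasmic reticulum, 0.53 in the cytosol and 0.79 in mitochondria. Over all members it was 0.38, and over all genes 0.15.

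**Figure D1:**
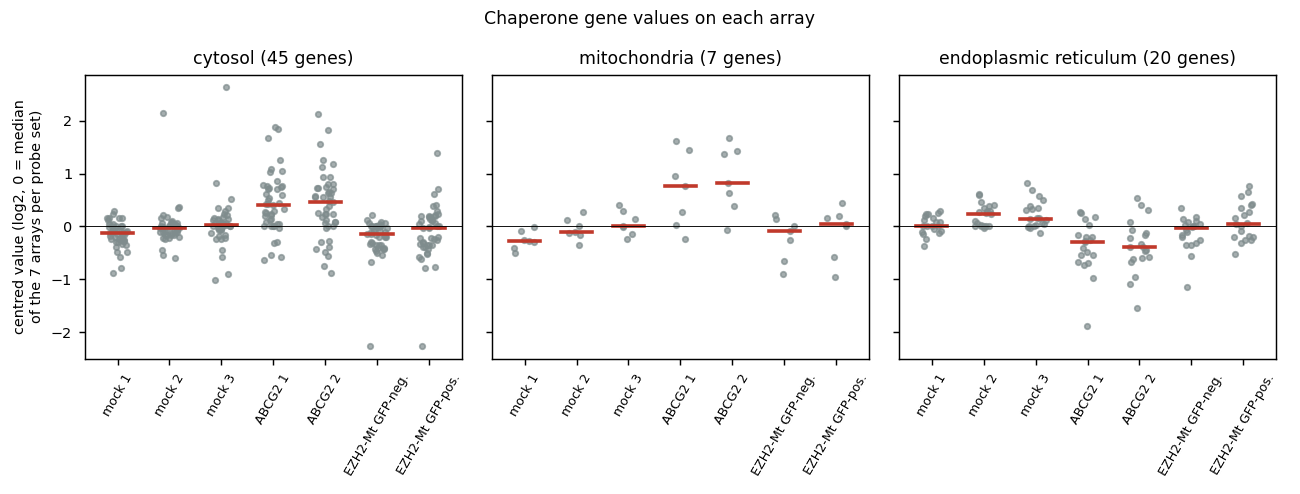
Values of the chaperone genes on each of the 7 arrays (y axis, log2, with 0 the median of the 7 arrays for each probe set), in 3 panels by compartment, with 1 point per gene and a red bar at the median. In the endoplasmic reticulum the medians of the ABCG2 arrays, -0.28 and -0.39, lie below those of the mock arrays, 0 to 0.24, and in the cytosol and mitochondria they lie above.

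Before any fold change, the array medians gave the same order. For cytosolic members they were -0.13, -0.03 and 0.03 on mock arrays 1 to 3 and 0.40 and 0.47 on ABCG2 arrays 1 and 2. The mitochondrial members had medians of -0.28, -0.10 and 0 in mock and 0.76 and 0.82 in ABCG2. In both compartments each ABCG2 array stood above every other array, since the EZH2-Mt fractions had medians of -0.15 and -0.02 in the cytosol and -0.09 and 0.05 in mitochondria.

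The size of the calls depended on the scaling between arrays. After quantile normalization of the 5 arrays, which gives all 5 one common distribution, 11 members were higher and 9 lower, against 15.6% and 16.9% of all genes. Of the 20 endoplasmic reticulum members 6 were then lower and 0 higher. Of the 45 cytosolic members 8 were higher, a share near that of all genes, and 3 lower. In mitochondria 2 of 7 were higher and 0 lower. The medians were -0.50, 0.33 and 0.36 in that order. Of the 51 called members, 19 were called in the same direction both ways, and 0 turned direction under any of the 11 alternatives tried.

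**Figure D2:**
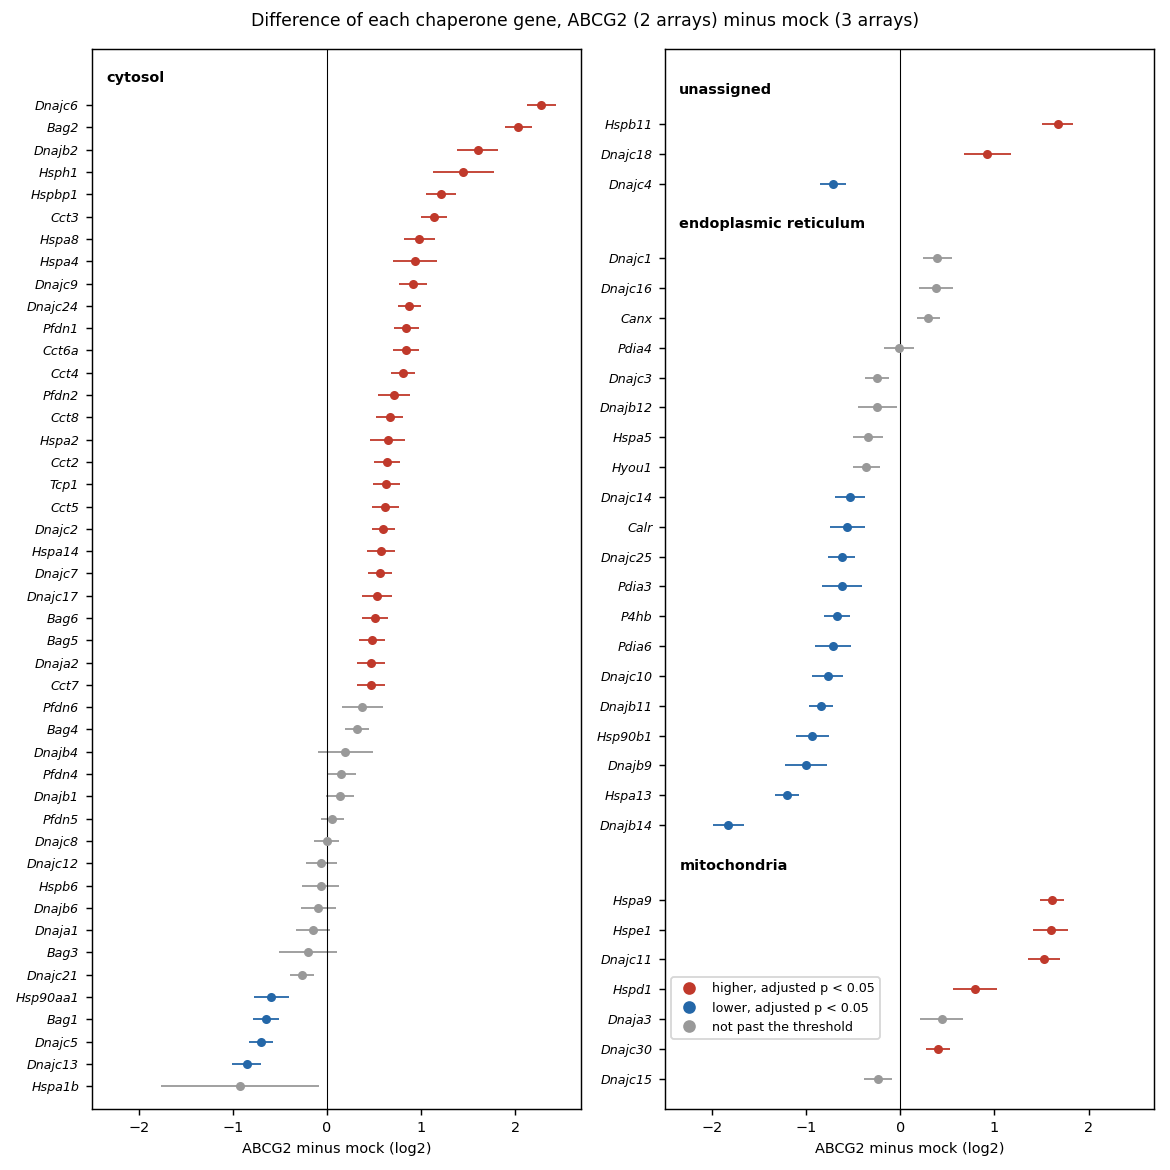
Difference of each of the 75 chaperone genes between ABCG2 (2 arrays) and mock (3 arrays) on the x axis (log2), with limma's standard error as the bar, by compartment. Red points rose, blue points fell at an adjusted p under 0.05, and grey points did not pass; 27 of the cytosolic genes are red and 12 of the endoplasmic reticulum genes are blue.

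Of the chief HSP70 and HSP90 of the endoplasmic reticulum, both lower on the ABCG2 arrays, the HSP90 passed the test. Hspa5 (BiP), the HSP70 of the compartment, had values of -0.14, 0.01 and 0.17 on the mock arrays and -0.19 and -0.47 on the ABCG2 arrays. Both ABCG2 arrays lay below the mock range, but the difference of -0.34 ± 0.16 (SE) did not pass (adjusted p 0.104). Hsp90b1 (GRP94), the HSP90 of the compartment, had values of 0.23, 0.39 and 0.69 in mock and -0.41 and -0.59 in ABCG2. Both ABCG2 arrays lay below the mock range, as for 32.7% of all genes, and Hsp90b1 fell by 0.94 ± 0.18 (adjusted p 0.00385, 1.92-fold). One of its 2 probe sets gave -1.83 and the other -0.05, so the fall rested on 1 probe set. Hspa13, a small relative of the HSP70s bound to microsomes, had values of 0.13 to 0.34 in mock and -0.97 and -0.96 in ABCG2, a fall of 1.21 ± 0.13 (adjusted p 0.000431) with all 3 probe sets lower. Hyou1, the HSP110-like exchange factor for Hspa5, had values of 0, 0.27 and 0.06 in mock and -0.28 and -0.23 in ABCG2, and its difference of -0.36 ± 0.14 missed the threshold (adjusted p 0.0606).

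The J proteins assigned to the endoplasmic reticulum fell in 6 of 10 cases and rose in 0, with a median difference of -0.58. Of all genes 26.2% were lower and 35.6% higher. The unassigned J proteins Dnajc18, called higher, and Dnajc4, called lower, are not counted here. At an unadjusted p under 0.05, 1 of them was higher. Dnajb14, a membrane J protein whose J domain faces the cytosol, had values of 0.08, 0.28 and 0 in mock against -1.88 and -1.53 in ABCG2. That was the largest fall among the 75 members, at 1.83 ± 0.17 (adjusted p 0.000201, 3.55-fold). Dnajb9 (ERdj4), a luminal partner of Hspa5 in degradation, went from 0, 0.34 and 0.33 to -0.48 and -1.09, a difference of -1.003 ± 0.22 (adjusted p 0.00729). Dnajb11 (ERdj3), which binds nascent luminal proteins, had 0.24, 0.24 and 0.38 in mock and -0.54 and -0.57 in ABCG2. The arrays of each group lay close together, and the difference was -0.84 ± 0.13 (adjusted p 0.00158). Dnajc10 (ERdj5), a J protein that reduces disulfides, fell by 0.77 ± 0.16 (adjusted p 0.00627) with all 3 probe sets lower, while after quantile normalization it missed the threshold (adjusted p 0.0521). Dnajc3 (p58IPK), an inhibitor of the kinase PERK and a cochaperone of Hspa5, had a difference of -0.24 that did not pass (adjusted p 0.139). Its 5 probe sets ran from -1.02 to 0.36.

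Of the 4 disulfide isomerases 3 fell and 0 rose, also at an unadjusted p under 0.05, with a median difference of -0.65. By the adjusted p 26.2% of all genes were lower and 35.6% higher. P4hb, the founding isomerase, had -0.10, 0.04 and 0.14 in mock and -0.68 and -0.61 in ABCG2, a fall of 0.67 ± 0.14 (adjusted p 0.00528), with an adjusted p of 0.0874 after quantile normalization. Pdia6 had 0.25, 0.59 and 0.82 in mock and -0.26 and -0.07 in ABCG2, and fell by 0.72 ± 0.19 (adjusted p 0.0169). Its call was lost without mock 2 (0.0559) and without ABCG2 1 (0.0708). Pdia3, the isomerase that works on glycoproteins with the lectins, fell by 0.62 ± 0.21 (adjusted p 0.0399). Mock 1 was at 0, nearer to the ABCG2 arrays at -0.29 and -0.17 than to mock 2 and mock 3 at 0.61 and 0.58. Leaving out mock 2 (adjusted p 0.120), mock 3 (0.113), ABCG2 1 (0.127) or ABCG2 2 (0.0807) ended that call, as did quantile normalization (0.0948). Pdia4 gave a difference of -0.01 ± 0.16 (adjusted p 0.951), with mock values from -0.09 to 0.31 around the ABCG2 values of 0.03 and 0.09.

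The lectin chaperones, which hold glycoproteins while they fold, did not move together. Calr, the soluble one, had values of 0, 0.45 and 0.49 in mock and -0.16 and -0.33 in ABCG2, and fell by 0.56 ± 0.19 (adjusted p 0.0373). The call was lost without mock 2 (adjusted p 0.114), mock 3 (0.105), ABCG2 1 (0.0596) or ABCG2 2 (0.139), with quantile normalization (0.0951), and without probe sets of the kinds that can match several transcripts (0.107). Canx, its membrane-bound relative, gave -0.04, 0.06 and -0.01 in mock and 0.28 and 0.32 in ABCG2. Both ABCG2 arrays were above the mock range, and the difference of 0.30 ± 0.12 did not pass (adjusted p 0.0744). One of 3 Canx probe sets was called higher (1.02) while the others gave -0.16 and 0.04.

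The count of 0 higher in the endoplasmic reticulum is limma's at an adjusted p under 0.05, and 2 members were higher at an unadjusted p under 0.05. Without probe sets of the kinds that can match several transcripts 2 were called higher, with the median of the probe sets 1 was, and without ABCG2 1 it was 1. Of the 6 members with the stress element, 3 fell (Calr, Hsp90b1 and Pdia6), 3 did not pass (Canx, Dnajc3 and Hspa5) and 0 rose. Among the 12 endoplasmic reticulum members with a promoter window but no such element, 8 fell.

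In the cytosol the whole CCT chaperonin was higher. All 8 measured subunits, Tcp1 and Cct2 to Cct8 with Cct6a, rose, by 0.47 to 1.13 with a median of 0.65 (1.38 to 2.19-fold, adjusted p 0.000656 to 0.0304). On both ABCG2 arrays each subunit exceeded all 5 other arrays, which 34.9% of all genes did. Cct3 was the subunit with the largest rise: mock values were -0.17, -0.08 and 0.07 and ABCG2 values 1.02 and 1.12, a difference of 1.13 ± 0.14 (adjusted p 0.000656) with all 4 probe sets higher. Tcp1, the subunit that gave the complex its name, went from -0.29, -0.10 and 0 to 0.44 and 0.56, a rise of 0.63 ± 0.14 (adjusted p 0.00911). The groups did not overlap for any subunit. After quantile normalization 1 of the 8 was still called higher (Cct3), a share no larger than the 15.6% of all genes. The median difference over the subunits was then 0.42. In the leave-one-out fits 7 were called every time, and Cct7, named here after its values were seen, lost its call without mock 1, mock 2, ABCG2 1 or ABCG2 2, where its adjusted p went up to 0.113.

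Prefoldin, which hands unfolded actin and tubulin to CCT, rose in 2 of its 5 subunits among the members and fell in 0. That is a share near the 35.6% of all genes. After quantile normalization 0 of the 5 were called. The differences of these 5 ran from 0.06 to 0.84, with a median of 0.38. Its subunit Vbp1, which the symbol rule leaves out and which is counted with the partner genes below, gave 0.01 (adjusted p 0.948).

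Of the 7 cytosolic HSP70, HSP110 and HSP90 genes 5 rose and 1 fell, against 35.6% and 26.2% of all genes. After quantile normalization 2 were higher and 0 lower, against 15.6% and 16.9% of all genes. Hspa8 (Hsc70), the constitutive HSP70, had values of -0.57, -0.44 and -0.23 in mock and 0.42 and 0.72 in ABCG2. It rose by 0.98 ± 0.17 (adjusted p 0.00253, 1.98-fold), 3 of its 4 probe sets were called higher, and they ranged from 0.16 to 1.97. Hsph1 (Hsp105), an HSP110, had values of -0.32, 0 and 0.83 in mock against 1.67 and 1.57 in ABCG2. Its mock arrays spread widely. Both ABCG2 arrays lay above the mock range, as for 44.2% of all genes, and the rise was 1.45 ± 0.32 (adjusted p 0.00814). Quantile normalization took its difference to 0.63 with an adjusted p of 0.395. Hspa4, the other cytosolic HSP110, rose by 0.93 ± 0.23 (adjusted p 0.0130), with an adjusted p of 0.0629 without ABCG2 1, and its 2 probe sets gave 0.22 and 1.65. After quantile normalization its difference was 0.41 (adjusted p 0.352). Hsp90aa1, the inducible cytosolic HSP90, went the other way. It had -0.03, 0.18 and 0.51 in mock and -0.31 and -0.42 in ABCG2, a fall of 0.59 ± 0.18 (adjusted p 0.0297). Of its 3 probe sets 2 were called lower, at -1.18 and -0.61, and the third gave 0.02. The call was lost without mock 2 (adjusted p 0.0725), mock 3 (0.0648), ABCG2 1 (0.0606) or ABCG2 2 (0.104), and with quantile normalization (0.126).

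Hspa1b, the stress-inducible HSP70, varied more between replicates than any other member named here. Its mock values were -0.24, 2.14 and 2.63 and its ABCG2 values 0 and 1.18, while both EZH2-Mt fractions were at -2.26. The groups overlapped, and the difference of -0.92 ± 0.84 did not pass (adjusted p 0.371). Without mock 1 it was -1.80 with an adjusted p of 0.0168. Its probe sets can also match the near-identical Hspa1a, so the value is uncertain between them. The inducible J protein Dnajb1 and its relative Dnaja1 gave differences of 0.14 (adjusted p 0.451) and -0.15 (adjusted p 0.512), and Bag3, the heat-inducible BAG protein, gave -0.20 (adjusted p 0.586). For Bag3, ABCG2 1 was at 0.26 and ABCG2 2 at -0.75, on either side of the mock range of -0.28 to 0.16, and without ABCG2 1 it fell by 0.71 (adjusted p 0.0311).

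**Figure D3:**
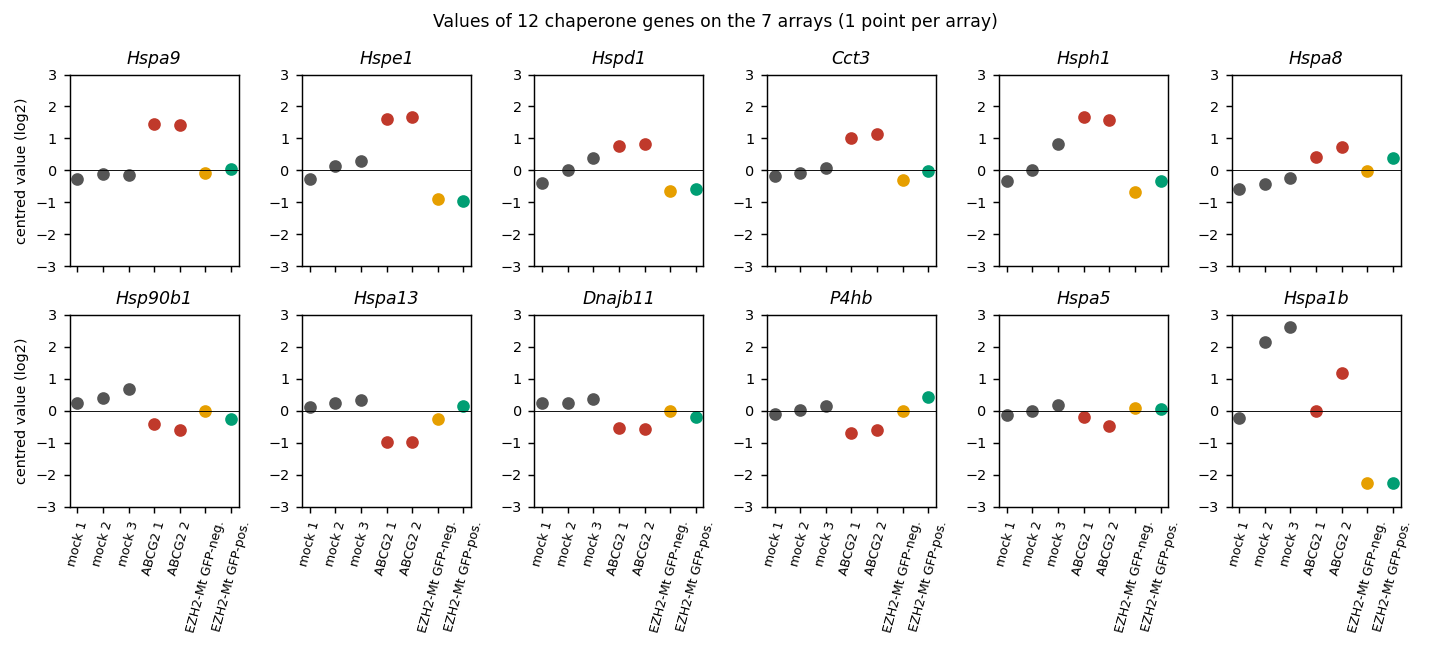
Values of 12 chaperone genes on the 7 arrays (y axis, log2 centred on the median of the 7 arrays; x axis, the arrays; 1 point per array). Hspa9, Hspe1 and Cct3 stand above mock on both red ABCG2 arrays, Hsp90b1, Hspa13, Dnajb11 and P4hb stand below, and the mock values of Hspa1b range from -0.24 to 2.63.

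The cytosolic members with the largest rises were cofactors of HSP70, among them Hsph1 (1.45), described above. Dnajc6 (auxilin), which with Hsc70 strips clathrin from vesicles, had -0.49, -0.20 and -0.58 in mock and 1.88 and 1.83 in ABCG2. Its rise of 2.28 ± 0.16 (adjusted p 6.74e-05, 4.85-fold) was the largest of the 75 members. Bag2, an exchange factor that inhibits the ubiquitin ligase CHIP, lay between -0.10 and 0 in mock and at 1.85 and 2.13 in ABCG2, a rise of 2.03 ± 0.14 (adjusted p 7.18e-05). Dnajb2 (HSJ1), a J protein that also binds ubiquitin, rose by 1.60 ± 0.22 (adjusted p 0.00103) from -0.88, -0.59 and -1.02 to 1.06 and 0.49. Hspbp1, which releases nucleotide from HSP70, rose by 1.21 ± 0.16 (adjusted p 0.000969) from -0.27, 0 and 0.12 to 1.08 and 1.25, and quantile normalization took its adjusted p to 0.0783. Dnajc6, Bag2, Dnajb2 and Hspbp1 are each measured by 1 probe set.

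Of the 17 cytosolic J proteins 8 rose and 2 fell, against 35.6% and 26.2% of all genes. After quantile normalization 3 were higher and 3 lower, against 15.6% and 16.9% of all genes. Dnajb6, whose promoter held the heat shock element, gave a difference of -0.09 that did not pass (adjusted p 0.690). Dnajc13 (RME-8), which acts in endosomal sorting, had 0.16, 0.22 and 0 in mock and -0.58 and -0.87 in ABCG2 and fell by 0.86 ± 0.15 (adjusted p 0.00313). Dnajc5, the cysteine string protein of secretory vesicles, had 0.17, 0.11 and 0.02 in mock and -0.64 and -0.57 in ABCG2 and fell by 0.70 ± 0.13 (adjusted p 0.00347). For both genes the 2 ABCG2 arrays lay below the mock range, as they did for 32.7% of all genes. Of the 6 BAG genes 3 rose and 1 fell, not far from the shares of all genes. After quantile normalization 2 BAG genes were higher and 0 lower, against 15.6% and 16.9% of all genes.

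In mitochondria Hspa9, Hspe1 and Hspd1 rose, while Dnaja3, the J protein partner of Hspa9, did not pass. Hspa9 (mortalin), the HSP70 that pulls imported proteins into the matrix, had -0.28, -0.10 and -0.15 in mock and 1.44 and 1.43 in ABCG2. It rose by 1.61 ± 0.13 (adjusted p 0.000115, 3.06-fold), with 3 of 3 probe sets higher, at 0.99 to 2.46. Hspe1 (Hsp10), the lid of the folding chamber, had -0.26, 0.12 and 0.29 in mock and 1.62 and 1.67 in ABCG2. It rose by 1.60 ± 0.19 (adjusted p 0.000556), with both probe sets higher. Hspd1 (Hsp60), the chamber itself and the gene that shares the promoter stretch printed above with Hspe1, went from -0.41, 0 and 0.40 to 0.76 and 0.82. Both ABCG2 arrays lay above the mock range, as for 44.2% of all genes. Hspd1 rose by 0.79 ± 0.24 (adjusted p 0.0254), a call lost without mock 2 (0.0692), ABCG2 1 or ABCG2 2. After quantile normalization Hspe1 gave 0.83 (adjusted p 0.0766) and Hspd1 0.36 (adjusted p 0.518).

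Among the mitochondrial J proteins Dnajc11, a protein of the outer membrane linked to the cristae complex, rose by 1.53 ± 0.17 (adjusted p 0.000500) from -0.49, -0.34 and -0.23 to 0.96 and 1.38. Dnaja3 (Tid1), the partner of Hspa9, gave a difference of 0.44 ± 0.22 that did not pass (adjusted p 0.132), with ABCG2 1 at 0.03 inside and ABCG2 2 at 0.63 above the mock range of -0.29 to 0.14. Without ABCG2 1 it rose by 0.74 (adjusted p 0.0283). The count of 5 higher mitochondrial members was 3 without mock 2 and 3 without ABCG2 2, and 0 were lower at an unadjusted p under 0.05 either.

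The 3 unassigned members were all called. Dnajc18, a J protein named here after its values were seen, rose by 0.92 ± 0.25 (adjusted p 0.0173), with both probe sets higher. Quantile normalization took its difference to 0.89 with an adjusted p of 0.192. Hspb11, which bears a heat shock name but is known as the intraflagellar transport protein IFT25, rose by 1.67 ± 0.17 (adjusted p 0.000297) from -0.12, 0.01 and 0 to 1.85 and 1.42. Dnajc4, a J protein whose role is little known, had 0.07, 0 and 0.13 in mock and -0.78 and -0.52 in ABCG2 and fell by 0.72 ± 0.14 (adjusted p 0.00466, and 0.0569 after quantile normalization).

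The spread within the groups was small beside these differences for most members. The median absolute difference over the 75 members was 0.15, 0.24 and 0.14 between pairs of mock arrays and 0.15 between the ABCG2 arrays. Members 2-fold or more apart within a group were Hspa1b and Hsph1 in mock and Bag3 and Hspa1b in ABCG2. Both ABCG2 arrays lay above the mock range for 39 members and below it for 22, against 44.2% and 32.7% of all genes. In the endoplasmic reticulum that was 3 above and 15 below, in the cytosol 29 above and 5 below. Both ABCG2 arrays lay above all 5 other arrays for 33 members and below them for 18, against 34.9% and 27.7% of all genes.

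**Figure D4:**
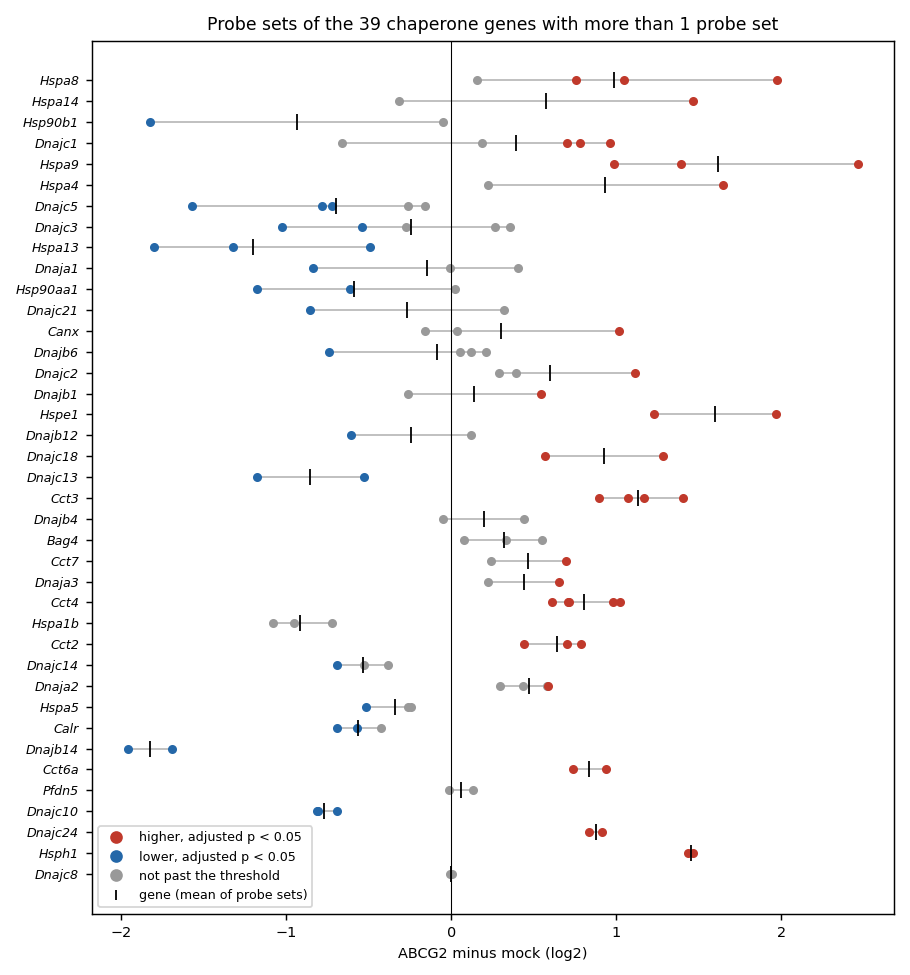
Difference between ABCG2 and mock of each probe set (x axis, log2) for the 39 chaperone genes with more than 1 probe set, ordered by how far their probe sets lie apart; the black tick is the mean used as the value of the gene. In 26 genes all probe sets lie on one side of 0, in 13 they span more than 1, and in 0 were probe sets called in opposite directions.

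Partner genes of the same pathways, taken from lists by role, were read against the same background of 35.6% higher and 26.2% lower. Of 15 measured mitochondrial folding and quality control partners 10 rose and 0 fell, also at an unadjusted p under 0.05, with a median difference of 0.76. Of 15 measured cytosolic co-chaperones of HSP70 and HSP90 8 rose and 0 fell, with a median of 0.50 and 0 lower at an unadjusted p under 0.05. Of 12 partners of chaperonin and prefoldin 5 rose and 1 fell, with a median of 0.21. Pdrg1, a subunit of a prefoldin-like complex, rose most in that list, by 2.09 ± 0.19 (adjusted p 0.000201). Of 26 measured folding partners of the endoplasmic reticulum 11 fell and 3 rose, with a median of -0.30. Quantile normalization left 5, 4, 3 and 1 higher and 0, 0, 0 and 9 lower in these 4 lists. Of all genes it left 15.6% higher and 16.9% lower.

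The largest falls of the endoplasmic reticulum list were those of Tmx4 and Ero1a, which both act on thiols. Tmx4, a membrane-bound thioredoxin-like protein, fell by 2.88 ± 0.13 (adjusted p 1.64e-05). Ero1a, the oxidase that recharges the disulfide isomerases, fell by 2.03 ± 0.20 (adjusted p 0.000311). Fkbp7, a prolyl isomerase of the same compartment, went the other way and rose by 2.52 ± 0.27 (adjusted p 0.0004). Of 21 measured genes of endoplasmic reticulum degradation 7 fell and 4 rose, with a median of -0.13.

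The regulators of the unfolded protein response did not share a direction, with 5 of 13 lower and 4 higher. Ern1 (IRE1), the sensor that splices Xbp1, fell by 0.88 ± 0.13 (adjusted p 0.00154), and Atf6, the sensor that becomes a transcription factor, fell by 0.53 ± 0.12 (adjusted p 0.00989, and 0.0548 after quantile normalization). Xbp1 gave a difference of -0.30 (adjusted p 0.126, or -0.48 with an adjusted p of 0.0392 without ABCG2 1), and Atf4, the factor downstream of PERK, gave 0.03 (adjusted p 0.929). Eif2ak3, which encodes PERK, gave 0.25 (adjusted p 0.723), and 1.31 with an adjusted p of 0.0139 without ABCG2 2. Ddit3 (CHOP) gave -0.75 (adjusted p 0.0704), and -1.30 with an adjusted p of 0.00135 without ABCG2 1. Splicing of Xbp1 and cleavage of Atf6 are not read by these probe sets. Of the heat shock factor list 2 of 5 names were measured, Hsf2 and the factor binding protein Hsbp1, and 0 were called by limma. The 1 at an unadjusted p under 0.05 was Hsbp1, with a difference of 0.31 (adjusted p 0.0632). Hsf2 gave 0.65 (adjusted p 0.0768), and 1.08 with an adjusted p of 0.00805 without ABCG2 2.

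In the sorted EZH2-Mt marrow few chaperone genes were 2-fold or more apart between GFP-positive and GFP-negative cells, as few of all genes were. Member differences ran from -0.77 to 1.90, and rises and falls cancel in a median. With 1 array per fraction there is no test. The median difference, GFP-positive minus GFP-negative, was 0.12 over the 75 members and 0.01 over all genes, and by compartment 0.12 in the cytosol, 0.07 in mitochondria and 0.12 in the endoplasmic reticulum. Members 2-fold or more higher in GFP-positive cells were 2, against 1.77% of all genes, and 0 were lower by that much, against 1.34%. These 2 were Hyou1, at -1.14 in GFP-negative and 0.77 in GFP-positive cells (3.74-fold), and Hspb6, a small heat shock protein, at 0.23 and 1.38 (2.23-fold). The mock values of Hyou1 (0 to 0.27) lay between its values in the fractions.

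The next differences in that direction were those of Bag3 (0.77), Calr (0.76) and Dnajc12 (0.72), a J protein that assists aromatic amino acid hydroxylases. In the other direction were Dnajc7 (-0.77), a J protein with repeats that bind HSP70 and HSP90, Dnaja1 (-0.67), Dnajb6 (-0.62), Dnajb9 (-0.39) and Dnajc21 (-0.34). Quantile normalization of all 7 arrays gave 5 members 2-fold or more apart, and a threshold of 1.5-fold gave 12. The shares of all genes at these 2 settings were not computed, so the counts have no background beside them. The marker lists differed between the fractions too. The erythroid markers averaged 0.69 in GFP-negative and 1.92 in GFP-positive cells, and the primary granule markers 0.20 and 1.09. Array controls differed as well, given here for GFP-negative and then GFP-positive cells. The bioB spike averaged 0.98 and 2.49, against -0.09 to 0 in mock. The bioC, bioD and cre spikes averaged 0.87 and 2.09, against -0.08 to 0.06 in mock. The dap, lys, phe and thr spikes averaged 1.95 and 3.61, against -0.07 to 0.02 in mock. The 3' minus 5' signal of Gapdh was 0.09 and 0.35, against -0.08 to 0.10 in mock. That of actin was 0.14 and 0.31, against -0.05 to 0.04 in mock. The part of markers and controls in the chaperone values, between the fractions or beside mock, was not tested.

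**Figure D5:**
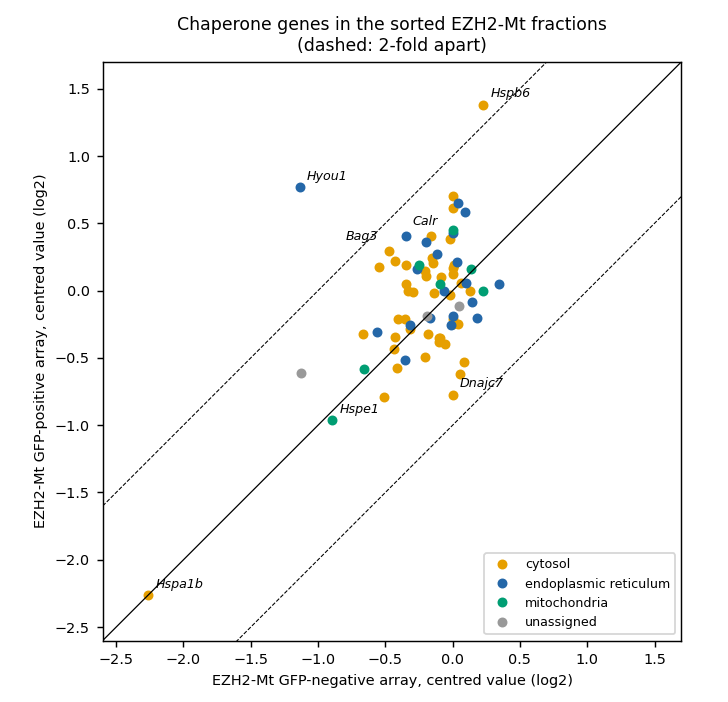
Each chaperone gene in the GFP-negative (x axis) and GFP-positive (y axis) fraction of EZH2-Mt marrow, 1 array each, in log2 centred on the median of the 7 arrays, coloured by compartment. The solid line marks equal values. Hyou1 and Hspb6 lie above the dashed line of a 2-fold difference, the other points lie between the dashed lines, and Hspa1b is at -2.26 in both.

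Set beside the mock arrays, which are unsorted, the GFP-negative array lay below the mock range for 41 members and above it for 13, against 30.7% and 38.9% of all genes. The GFP-positive array lay below it for 33 and above it for 25, against 33.6% and 42.5% of all genes. For the CCT subunits the GFP-negative array was below the mock range in 7 of 8, and the GFP-positive array was below it in 3 and above it in 3. Both ABCG2 arrays were above it in 8. Hspe1 and Hspd1 were low in both fractions, at -0.90 and -0.96 for Hspe1 and -0.66 and -0.59 for Hspd1, below their lowest mock values of -0.26 and -0.41. Hspa9, in contrast, was at -0.09 and 0.05, above its mock range of -0.28 to -0.10. Among endoplasmic reticulum members 12 were below and 2 above the mock range in GFP-negative cells, and 9 below and 5 above in GFP-positive cells. These comparisons and the one of ABCG2 use the same mock arrays, and sorting is not separated from genotype in them.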

How the data were processed

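Gene expression was measured on 7 Affymetrix arrays, and per the labels' protocols 5 µg of total RNA were amplified to about 50 µg of cRNA with a biotin label. Deposited values are logarithms, taken here as log2, of signals that the authors filtered, per the file headers, to raw signals of 3 to 120534.25 and, in 100% of the samples, detection calls of Present or Marginal. The submitters' processing notes name MAS5, and the scaling between arrays is not given in the sources used here. Each probe set has a median of 0 over the arrays, so values of different genes carry no level. The log base is not stated. No probe set spans more than 8.70 over the arrays, which exceeds the 4.60 that base 10 allows and is under the 10.6 of natural logs, so folds assume base 2. The value table held the same values as the sample files (largest difference 0), and 0 columns belonged to other samples.

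Leaving out 54 control probe sets, 14229 of 16255 had 1 gene symbol in the platform annotation, 483 had several and 1543 none, and only those with 1 symbol were used. RefSeq (GRCm38.p6) held the gene IDs of 14203 and changed 0 symbols. Probe sets were averaged to 8378 genes, and mock and ABCG2 were compared by limma's lmFit and eBayes (limma 3.58.1, R 4.3.3; two-sided test, Benjamini-Hochberg over all genes, threshold 0.05), with no block and no covariate. Errors are limma's standard errors, and for arrays their number limits the precision. The script was tested on simulated data. Compartments come from general knowledge of the proteins. The members and lists were chosen with earlier results of these data known. The text names the 10 members with the largest rise and the 10 with the largest fall among those called with both ABCG2 arrays outside the mock range, the chief members of each class whatever their values, the 5 with the largest GFP-positive minus GFP-negative difference in each direction, and of the partner lists the chief regulators and genes past 2 on the log2 scale. Alternatives were quantile normalization, centring of arrays, array weights, the replicate number as a block, other ways to join probe sets, and leaving out each array.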

Additional observations from a re-analysis of the deposited data

How the results depend on the processing

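Quantile normalization of the 5 arrays moved the counts most: 11 members higher and 9 lower in place of 34 and 17, 8 in place of 27 higher in the cytosol, 2 in place of 5 higher in mitochondria, 6 in place of 12 lower in the endoplasmic reticulum, and a median difference of 0.22 in place of 0.38. Over all genes it left 1309 higher and 1412 lower in place of 2983 and 2196. The median was 0.29 with array weights. Members higher in the endoplasmic reticulum numbered 2 without probe sets ending in _x_at and _s_at, 1 with the median of the probe sets and 0 as reported. Members 2-fold apart between the sorted fractions went from 2 to 12 at 1.5-fold and to 5 after quantile normalization of all 7 arrays. For these changed settings the shares of all genes were not computed. Without 1 array at a time, the counts ran from 26 to 30 higher and 13 to 17 lower over all members, from 20 to 25 higher in the cytosol, from 3 to 4 higher in mitochondria, and from 8 to 11 lower and 0 to 1 higher in the endoplasmic reticulum, and the median from 0.28 to 0.42. In all 5 of those fits 34 of the 51 called members kept their call, and in all 11 alternatives 16 did. Among the 49 named genes, 494 values under an alternative kept direction and side of the threshold, 35 lost the call, 9 gained one and 0 turned direction with a call. Shares of all genes called were computed only for the reported fit and for quantile normalization, so the other counts have no background beside them. The cause of these shifts was not tested.

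The titles number mock and ABCG2 arrays alike, but numbers 1 and 2 are the only ones shared, and the deviations of same-numbered arrays correlated at 0.07 and -0.06 over all genes, so the number was not taken as a pairing. With the replicate block 28 members were higher and 13 lower, with a median difference of 0.42. Among the named genes Calr (adjusted p 0.122), Hsp90aa1 (0.0872) and Pdia3 (0.0735) lost their calls under the block.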

Other observations

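In 13 of the 39 members with several probe sets, the probe sets of a gene lay over 1 apart on the log2 scale, and the value of such a gene is a mean of unlike readings. Dnajc5 ran from -1.58 to -0.16 over 5 probe sets with 3 called lower, and Dnajc1, a J protein of the endoplasmic reticulum named here after its values were seen, ran from -0.66 to 0.96 with 3 of 5 called higher while its mean of 0.39 did not pass (adjusted p 0.0616). Hspa14, a ribosome-associated HSP70 relative also named after its values were seen, was called higher at 0.58 from probe sets at -0.32 and 1.47. Which transcript ends these probe sets read was not analysed here.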
